A study of Mus musculus with 6 samples.

Results

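The 10 genes described here encode the cytosolic heat-shock chaperones most often read as a stress response: the HSP70 genes Hspa1a, Hspa1b and Hspa8, the HSP90 genes Hsp90aa1 and Hsp90ab1, the small heat-shock protein gene Hspb1, the HSP110 gene Hsph1, the J-domain genes Dnajb1 and Dnajb4, and the co-chaperone gene Bag3. They were taken by name from the count tables of the mouse glomerulus, the filtering unit of the kidney, and all 10 were found among the 28327 genes with a count in the single-cell tables and the 49492 genes of the bulk tables. The animals were 8-week-old male CD1 IGS outbred mice with no stated genotype or treatment. The 4 Drop-seq libraries, which count unique molecular identifiers (UMIs) on the 3′ ends of transcripts cell by cell, held dissociated glomerular cells fixed in 80% methanol in PBS. A bulk library of whole isolated glomeruli was made from live, unfixed material with 500 ng of total RNA, and a bulk library of dissociated glomerular cells, sorted after fixation, was made from 95 ng. The 2 bulk libraries therefore differ in dissociation, sorting, fixation and RNA input together, and these cannot be told apart.

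HSP70 chaperones bind unfolded stretches of other proteins and release them on ATP exchange, J-domain proteins such as Dnajb1 and Dnajb4 deliver the clients, and Hsph1 and Bag3 exchange the nucleotide. HSP90 takes over partly folded clients such as kinases and steroid receptors, and small heat-shock proteins such as Hspb1 hold unfolded proteins and bind actin filaments. Most of these genes are induced by heat shock factor 1, which binds inverted repeats of the unit nGAAn in their promoters; Hspa8 and Hsp90ab1 are the forms that most cells make without stress. Tissue dissociation is a known inducer of several of them.

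The promoters are shown to describe their sequence. Whether their letters bear on the levels below was not tested. RefSeq windows of GRCm38.p6, from 250 bases before the start to 50 bases after it, were at hand for 7 of the 10 genes; Hspa8, Hsp90aa1 and Hsp90ab1 had no entry. Capitals mark matches to paired heat-shock units, GAANNTTC or TTCNNGAA, on either strand, and the triple unit GAANNTTCNNGAA, which contains both. All lie on GRCm38.p6: Hspa1a at chr17:34972107-34972406 (minus strand), Hspa1b at chr17:34959189-34959488 (minus strand), Hspb1 at chr5:135887669-135887968 (plus strand), Hsph1 at chr5:149636266-149636565 (minus strand) and Dnajb4 at chr3:152193796-152194095 (minus strand, the internal one of its 2 annotated starts).
Hspa1a: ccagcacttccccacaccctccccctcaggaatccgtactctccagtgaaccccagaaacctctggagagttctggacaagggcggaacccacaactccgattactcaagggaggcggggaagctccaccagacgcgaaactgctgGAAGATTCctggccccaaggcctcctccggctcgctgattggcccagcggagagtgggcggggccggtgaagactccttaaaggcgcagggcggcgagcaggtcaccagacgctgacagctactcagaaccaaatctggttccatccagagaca
Hspa1b: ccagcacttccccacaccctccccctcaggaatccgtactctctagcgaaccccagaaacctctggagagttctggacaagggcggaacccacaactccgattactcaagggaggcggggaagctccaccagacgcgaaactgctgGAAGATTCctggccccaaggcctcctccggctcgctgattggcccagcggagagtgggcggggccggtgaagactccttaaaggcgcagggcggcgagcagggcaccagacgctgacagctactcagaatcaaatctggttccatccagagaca
Hspb1: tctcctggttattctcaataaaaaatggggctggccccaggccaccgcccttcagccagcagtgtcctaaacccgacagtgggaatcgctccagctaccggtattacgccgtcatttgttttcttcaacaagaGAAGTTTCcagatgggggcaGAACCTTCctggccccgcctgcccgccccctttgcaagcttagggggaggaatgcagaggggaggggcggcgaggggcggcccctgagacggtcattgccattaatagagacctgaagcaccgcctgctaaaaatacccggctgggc
Hsph1: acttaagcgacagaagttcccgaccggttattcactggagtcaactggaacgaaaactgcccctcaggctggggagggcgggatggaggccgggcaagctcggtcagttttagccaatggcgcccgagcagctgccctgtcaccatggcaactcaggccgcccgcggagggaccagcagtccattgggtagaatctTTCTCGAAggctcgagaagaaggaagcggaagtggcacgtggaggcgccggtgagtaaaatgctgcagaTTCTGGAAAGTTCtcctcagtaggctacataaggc
Dnajb4: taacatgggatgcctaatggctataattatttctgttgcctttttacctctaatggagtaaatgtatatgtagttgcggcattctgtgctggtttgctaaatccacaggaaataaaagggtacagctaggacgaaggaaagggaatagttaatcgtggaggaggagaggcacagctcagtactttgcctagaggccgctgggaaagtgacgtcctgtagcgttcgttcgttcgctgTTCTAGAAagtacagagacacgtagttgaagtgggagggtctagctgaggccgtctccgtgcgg

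The Hspa1a and Hspa1b windows were identical at 98.7% of bases, and each held GAANNTTC once, 104 bases before the start. Hspb1 held it at 117 and at 97 bases before the start. The triple unit was found in Hsph1 alone among the 7, from base 16 after the start, beside a separate TTCNNGAA pair 54 bases before it. Hsph1 has 2 annotated starts, and from the second these matches begin at base 37 after and 33 before the start. Dnajb4 held TTCNNGAA 14 bases before its internal start, while the window of its other start (chr3:152210034-152210333, minus strand) held no match. The Bag3 window (chr7:128523333-128523632, plus strand) held GAANNTTC from base 43 after the start. Both Dnajb1 windows held none of these letters. Of 32851 RefSeq promoter windows of this length, 7.86% held GAANNTTC, 8.52% held TTCNNGAA and 0.603% held the triple unit. A match is a description of the letters and not a bound site.

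Some of these genes have near-identical copies, which bears on every count. Hspa1a (GENCODE vM21 on GRCm38: chr17:34969190-34972156, minus strand) and Hspa1b (chr17:34956436-34959238, minus strand) are 2 single-exon neighbours that shared 58.8% and 62.3% of their 50-base fragments with each other, but none in the last 500 bases, where Drop-seq reads. Hspa8 shared 81.8% of the fragments in its last 500 bases with other genes, mainly the pseudogene Gm15459, and Hspb1 shared 15.96%, with the pseudogene Hsp25-ps1. Hsp90aa1 shared none there and Hsp90ab1 7.76%. Values of Hspa8 and, less so, of Hspb1 are therefore uncertain where the authors' counting could split reads, and in bulk the same holds for Hspa1a, Hspa1b, Hsp90aa1 and Hspb1. Hsph1, Dnajb4 and Bag3 shared no fragment with another gene, and Dnajb1 shared 0.407%.

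The 4 libraries held 3528543 to 6411775 UMIs in 15465 barcodes, of which 13993 were kept (at least 300 genes and at most 20% mitochondrial UMIs), with medians of 816 to 1156 UMIs per cell; 3 kept barcode sequences occurred in more than 1 library. Clusters were built without the genes described here and named from fixed markers: 10537 podocyte-like, 1842 endothelial-like, 922 tubular-like, 327 mural-like, 315 parietal epithelial-like and 50 immune-like cells. Pseudogene copies of these genes, such as Hsp25-ps1, were not left out of the clustering. The mural-like cells were 1 cluster led by the renin and smooth muscle genes Ren1, Acta2 and Rgs5, and all 8 mesangial markers also had their highest mean level there among the 5 types compared. The parietal epithelial-like cluster also carried podocyte markers, at 1.33% of its UMIs against 2.17% in podocyte-like cells and 0.173% to 0.468% in the tubular-, mural- and endothelial-like cells. Replicate 4 stood apart in podocyte-like cluster 10, which took 1333 of its 1512 cells from that library and led with H2-Q7 (61.5, 34.8, 35.2 and 1199 CPM in replicates 1 to 4, where CPM is the count of a gene scaled to a library or type total of 1000000). Nothing in the labels ties a library to an animal of its own, so the p-values speak to differences among 4 libraries whose variation could be technical.

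Together the 10 genes made up 0.939% ± 0.221 (SD, n = 4 libraries) of the UMIs of kept cells. The share was 1.21% ± 0.318 in endothelial-like cells, 0.988% ± 0.234 in podocyte-like, 0.787% ± 0.178 in mural-like, 0.706% ± 0.162 in parietal epithelial-like and 0.537% ± 0.111 in tubular-like cells. Within each of the 4 libraries endothelial-like cells had the highest share and tubular-like cells the lowest. Shares and CPM of a type are of all its UMIs, mitochondrial ones included, while the folds below use edgeR's TMM factors. A CPM and a fold can therefore point in opposite directions. Hspa8 had a mean of 813 CPM in parietal epithelial-like and 736 in tubular-like cells, but a log2 fold of -0.18 ± 0.14 (parietal epithelial minus tubular). In single cells thinned to 500 UMIs, the median was 5 chaperone UMIs in endothelial-like cells, 4 in podocyte-like, 3 in mural- and parietal epithelial-like and 2 in tubular-like cells. The share of cells with no chaperone UMI at that depth was 2.70% ± 1.70 in endothelial-like and 12.9% ± 5.11 in tubular-like cells (SD, n = 4), after 378 endothelial-like and 20 tubular-like cells under 500 UMIs were left out.

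Each type was then compared with the mean of the other 4 in a quasi-likelihood fit of 7556 genes (edgeR, library as a block, Benjamini-Hochberg adjustment). In endothelial-like cells 8 of the 10 chaperone genes were higher and 1 was lower, against 27.5% of all genes higher and 21.5% lower. In podocyte-like cells 7 were higher and 1 lower, against 25.4% and 20.4% of all genes. In tubular-like cells 6 were lower and 0 higher, against 26.5% and 27.1%, and 0 were higher at an unadjusted p under 0.05 in edgeR or by DESeq2. In mural-like cells 1 was higher and 3 lower, against 12.0% and 9.09%, and in parietal epithelial-like cells likewise 1 higher and 3 lower, against 9.78% and 4.13%. Median log2 folds of the 10 genes were 0.90 in endothelial-like, 0.41 in podocyte-like, -0.10 in mural-like, -0.45 in parietal epithelial-like and -0.45 in tubular-like cells, where the median of all genes lay between -0.11 and 0.02. Between endothelial- and podocyte-like cells themselves, 6 of the 10 were higher in endothelial-like and 2 in podocyte-like cells, against 29.9% and 29.8% of all genes. Of the 31 calls against the other types, 29 remained without replicate 1, 25 without replicate 2, 26 without replicate 3, 29 without replicate 4 and 21 without the library as a block. With no filter on low counts the folds of 6 genes in podocyte-like cells (Hspa1b, Hspa8, Hsp90aa1, Hsp90ab1, Hsph1 and Dnajb1) were over 1.5 times larger, at 0.61 to 0.86. Against all other cells summed, the endothelial folds of Hspa1b, Hsph1 and Dnajb1 were 0.47, 0.86 and 0.63 and that of Dnajb4 -1.19, all still past the threshold. A mitochondrial limit of 10% moved Hspa1a and Hspa1b in parietal epithelial-like cells to -1.31 and -1.07, Dnajb4 in podocyte-like cells to 0.58 and Hsp90ab1 in mural-like cells to -0.30, also still past it. DESeq2 called 3 higher in podocyte-like cells, and the count lower in parietal epithelial-like cells ran from 1 to 8 over the settings tried. Without replicate 2 it was 8, and 3 were lower in tubular-like cells. Without replicates 2 or 3 the count lower in mural-like cells was 1.

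**Figure D1:**
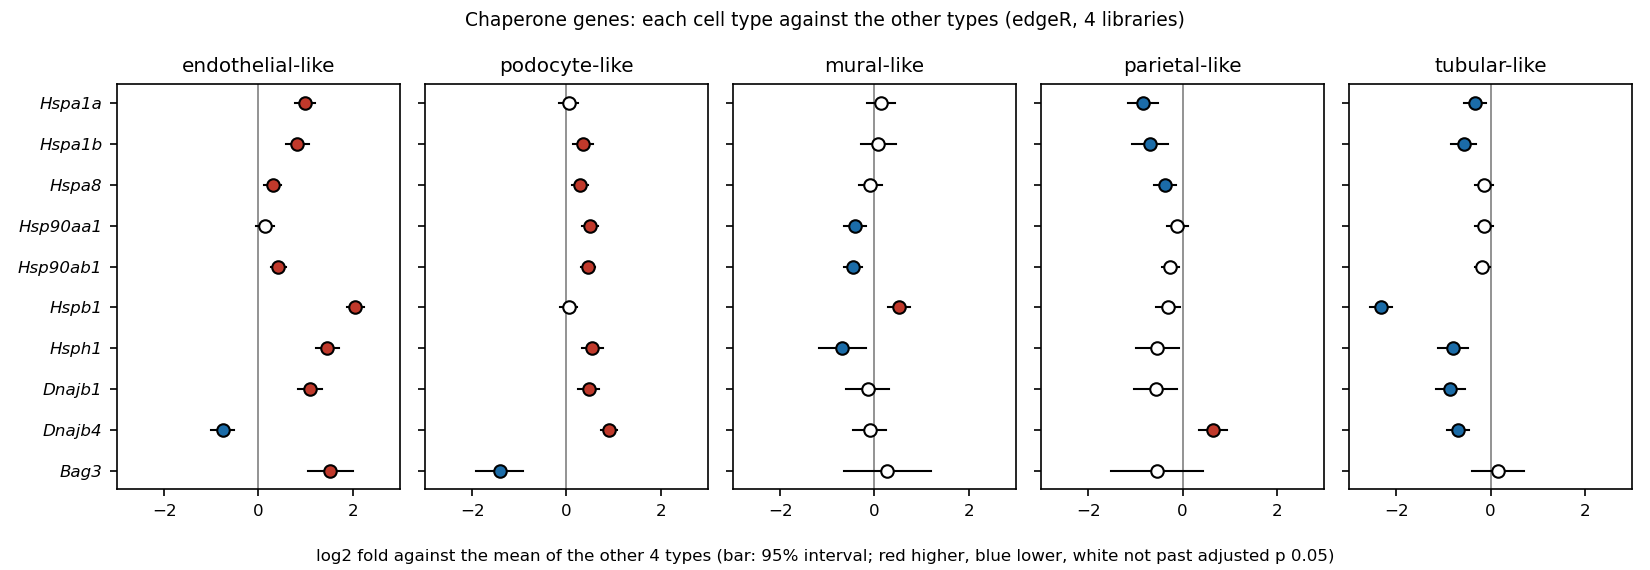
Log2 fold of each chaperone gene in 1 cell type against the mean of the other 4 (x axis, 95% interval as a bar), with 1 panel per type; red points were higher, blue points lower and white points not past the adjusted p of 0.05. Endothelial-like cells hold 8 red points and tubular-like cells 6 blue ones, and Dnajb4 is blue in endothelial-like and red in podocyte-like cells.

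Of the inducible HSP70 genes, Hspa1a stood at 693, 2079, 1127 and 2122 CPM in the endothelial-like cells of replicates 1 to 4. In podocyte-like cells it stood at 454, 961, 906 and 1296, and in tubular-like cells at 381, 415, 871 and 763. The libraries of the types overlapped, with endothelial-like replicate 3 (1127) below podocyte-like replicate 4 (1296). Compared within a library, the endothelial-like value was above the mean of the other types in 4 of 4 libraries. The endothelial log2 fold was 0.98 ± 0.11 (SE; edgeR adjusted p = 6.98e-13). Parietal epithelial-like cells, at 274 to 829 CPM, had a log2 fold of -0.84 ± 0.16 (edgeR adjusted p = 2.79e-05), and tubular-like cells one of -0.34 ± 0.12 (edgeR adjusted p = 0.0142), a call lost without replicate 2 (0.054) or 4 (-0.31), with DESeq2 (-0.17), RLE size factors (-0.22), no filter on low counts (-0.23), mitochondrially encoded genes left out (-0.25) or no library block, while without replicate 3 the value was -0.57. From the top, endothelial-like cells differed from mural-like cells, and podocyte-like from tubular-like cells, while mural- and podocyte-like cells, and tubular- and parietal epithelial-like cells, did not differ beyond their spread.

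Hspa1b, whose protein is nearly the same, had 248, 1001, 763 and 1000.2 CPM in endothelial-like cells and 253, 539, 732 and 808 in podocyte-like cells. It was higher in both, with log2 folds of 0.83 ± 0.12 (edgeR adjusted p = 1.19e-08) and 0.36 ± 0.11 (edgeR adjusted p = 0.00502), each in 4 of 4 libraries. The podocyte call was lost without replicate 3 (0.15), with DESeq2 (0.20), RLE size factors (0.23), a mitochondrial limit of 10% (0.20) or no library block. Tubular-like cells had 168, 175, 455 and 432 CPM and a log2 fold of -0.57 ± 0.14 (edgeR adjusted p = 0.000267), a call lost without replicate 2 (-0.084), with DESeq2 (-0.36) or with no library block. In tubular-like cells the values fell in pairs, replicates 1 and 2 low and replicates 3 and 4 high, for Hspa1b and for Hspa1a. Parietal epithelial-like cells were lower too, with a log2 fold of -0.70 ± 0.19 (edgeR adjusted p = 0.00621), which was -1.08 without replicate 2 and was no longer called without replicate 3 (-0.53) or the library block.

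Hspa8, the constitutive HSP70, had log2 folds against the other types between -0.37 and 0.30. It stood at 859, 1037, 1218 and 1359 CPM in podocyte-like cells, 893, 1175, 1146 and 1177 in endothelial-like cells and 725, 567, 737 and 913 in tubular-like cells. No 2 neighbours in the order of its levels differed, and the 2 highest types, podocyte- and endothelial-like, differed by a log2 fold of -0.01 ± 0.10 (podocyte minus endothelial, edgeR adjusted p = 0.938). Against the mean of the others it was higher in endothelial-like (0.30 ± 0.09, edgeR adjusted p = 0.00388) and in podocyte-like cells (0.29 ± 0.08, edgeR adjusted p = 0.00272). Both calls were lost with no library block. The endothelial one was also lost with at least 500 genes per cell (0.21) and against all other cells summed (0.081), and the podocyte one without replicate 3 (0.17), with DESeq2 (0.16) and with RLE size factors (0.16). In parietal epithelial-like cells Hspa8 was lower (-0.37 ± 0.12, edgeR adjusted p = 0.0260). With no library block, Hspa8 and Hspa1a were not both called lower there. Types further apart in the order differed: endothelial-like from parietal epithelial-like (0.54 ± 0.14) and tubular-like cells (0.36 ± 0.11). Podocyte-like cells differed from tubular-like cells (0.35 ± 0.11), and parietal epithelial-like from podocyte-like cells (-0.53 ± 0.13).

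Both HSP90 genes were higher in podocyte-like cells, and Hsp90ab1 was also higher in endothelial-like cells. Hsp90aa1, the stress-inducible form, was highest in podocyte-like cells, at 1349, 2119.9, 1776 and 2181 CPM, with a log2 fold of 0.51 ± 0.09 (edgeR adjusted p = 5.36e-07) in 4 of 4 libraries. It was the only one of the 10 genes besides Dnajb4 to exceed its endothelial-like level in podocyte-like cells past the test, by a log2 fold of 0.29 ± 0.11 (edgeR adjusted p = 0.0184). Its endothelial-like values of 970.2, 1967, 1317 and 1768 gave a log2 fold of 0.14 ± 0.09 against the others (edgeR adjusted p = 0.205). In mural-like cells it was lower (-0.41 ± 0.12, edgeR adjusted p = 0.00825), but this call was lost without replicate 2 (-0.26) or 3 (-0.35), with DESeq2 (-0.32), RLE size factors (-0.29), a mitochondrial limit of 10% (-0.26), at least 500 genes per cell (-0.29) or no library block, and without replicate 4 the value was -0.61. Hsp90ab1, the constitutive form, stood at 2636, 3403, 3625 and 4032 CPM in podocyte-like and 2388, 3833, 3170.4 and 3798 in endothelial-like cells. These types did not differ (0.03 ± 0.10, edgeR adjusted p = 0.821), and both were above the others, by log2 folds of 0.46 ± 0.08 (edgeR adjusted p = 8.14e-07) and 0.42 ± 0.08 (edgeR adjusted p = 9.28e-06), the latter not called against all other cells summed (0.056). Mural-like cells, at 2027 to 2583, were lower (-0.45 ± 0.10, edgeR adjusted p = 0.000230).

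Hspb1 had the largest differences between types of the 10, in both directions. Endothelial-like cells held 2023, 2739.5, 3034 and 3602 CPM, mural-like cells 1003, 1259, 1213 and 1952, podocyte-like cells 637, 884, 881 and 1544, and tubular-like cells 111, 220.3, 149 and 404. No tubular-like library reached the lowest library of another type, and no other type's library reached the lowest endothelial-like one. The log2 fold was 2.06 ± 0.09 in endothelial-like cells (edgeR adjusted p = 3.25e-36), 0.53 ± 0.12 in mural-like cells (edgeR adjusted p = 0.000461) and -2.33 ± 0.12 in tubular-like cells (edgeR adjusted p = 2.85e-30). Its order was endothelial-, mural-, podocyte-, parietal epithelial- and tubular-like, and of these neighbours podocyte- and parietal epithelial-like cells did not differ (0.28 ± 0.14, edgeR adjusted p = 0.271). In podocyte-like cells the value against the others was 0.05 ± 0.09, and its sign rested on the setting: it was -0.53 with a mitochondrial limit of 10%, which left no tubular-like group, and -0.39 against all other cells summed, both past the threshold. Under those settings the mural value fell to 0.26 and 0.17, and its call was lost, as it was with no library block.

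Hsph1, which serves HSP70 as a nucleotide exchange factor, had 211, 649, 435 and 571 CPM in endothelial-like cells, 128, 316, 300.2 and 403 in podocyte-like cells and 114, 91.3, 109 and 162 in tubular-like cells. Its log2 fold was 1.46 ± 0.13 in endothelial-like (edgeR adjusted p = 2.36e-17), 0.55 ± 0.12 in podocyte-like (edgeR adjusted p = 4.15e-05) and -0.80 ± 0.16 in tubular-like cells (edgeR adjusted p = 1.70e-05). The tubular call was lost without replicate 2 (-0.33), and the podocyte one with DESeq2 (0.39) and against all other cells summed (0.25). In mural-like cells, where it had 46 UMIs in all, Hsph1 was lower (-0.68 ± 0.25, edgeR adjusted p = 0.0427). This mural call was lost with a mitochondrial limit of 10%. With DESeq2, RLE size factors, at least 500 genes per cell or no library block, Hsph1 and Hsp90ab1 were not both called lower there. Dnajb1, the J-domain partner of inducible HSP70, followed the same order at the top, with 225, 518, 295 and 529 in endothelial-like and 146, 315, 261 and 394 in podocyte-like cells. Its log2 folds were 1.10 ± 0.13 in endothelial-like (edgeR adjusted p = 8.80e-12), 0.47 ± 0.11 in podocyte-like (edgeR adjusted p = 0.000289) and -0.86 ± 0.16 in tubular-like cells (edgeR adjusted p = 2.55e-06). Without replicate 2 the tubular value was -0.44, still past the threshold, and the podocyte call was lost with DESeq2 (0.31) and a mitochondrial limit of 10% (0.32). For both genes endothelial- and podocyte-like cells differed from each other, by 0.73 ± 0.12 for Hsph1 (edgeR adjusted p = 1.12e-07) and 0.51 ± 0.12 for Dnajb1 (edgeR adjusted p = 0.000244).

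Dnajb4, the other J-domain gene, ran opposite to Dnajb1 in endothelial-like cells. It stood at 324, 475, 454 and 457 CPM in podocyte-like and 257, 403, 481 and 435 in parietal epithelial-like cells, and at 148, 162, 190.3 and 163 in endothelial-like cells. No endothelial-like library reached the lowest podocyte-like one. The log2 fold was 0.90 ± 0.09 in podocyte-like cells (edgeR adjusted p = 1.16e-15), -0.75 ± 0.12 in endothelial-like cells (edgeR adjusted p = 2.25e-07) and -0.69 ± 0.12 in tubular-like cells (edgeR adjusted p = 6.72e-07). Its 0.65 ± 0.15 in parietal epithelial-like cells (edgeR adjusted p = 0.000769) became -0.0584 against all other cells summed, most of which are podocyte-like, and was not called without replicate 2 (0.47) or the filter on low counts (0.35); podocyte- and parietal epithelial-like cells did not differ (0.20 ± 0.15, edgeR adjusted p = 0.537). That cluster's podocyte markers are given above, and their part in its level was not tested.

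Bag3, which links HSP70 to autophagy and to actin-bound clients, was the least counted of the 10, with 426 UMIs in all kept cells. It stood at 74.2, 124, 46.0 and 105 CPM in endothelial-like cells and at 9.52, 17.1, 20.01 and 21.0 in podocyte-like cells, with no overlap. It was the only one of the 10 that was lower in podocyte-like cells (log2 fold -1.42 ± 0.26, edgeR adjusted p = 2.27e-06), and it was higher in endothelial-like cells (1.52 ± 0.24, edgeR adjusted p = 1.14e-07). In cells thinned to 500 UMIs, 3.87% ± 1.54 of endothelial-like and 0.816% ± 0.310 of podocyte-like cells had a Bag3 UMI (SD, n = 4), against 5.65% and 1.85% without thinning. No type expected to lack these genes was present, so background from free RNA could not be set against such shares.

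**Figure D2:**
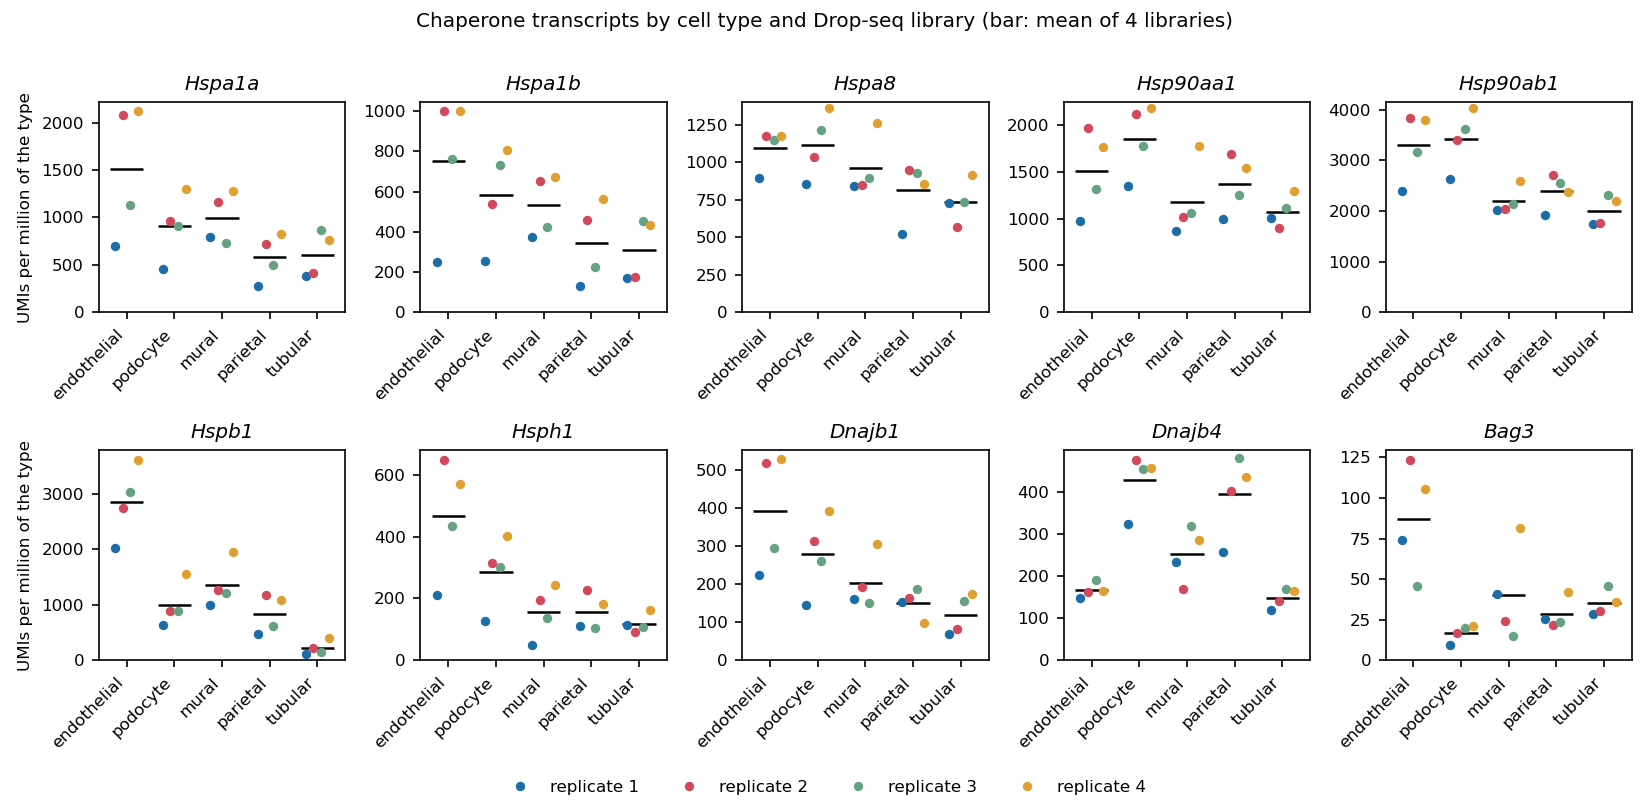
CPM in the summed cells of each type (y axis, linear, from 0), 1 panel per gene and 1 point per Drop-seq library, with the mean of 4 libraries as a bar. Hspb1 spans from 111 in a tubular-like library to 3602 in an endothelial-like one, and replicate 1 is the lowest podocyte-like point in all 10 panels.

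The libraries differed in these genes more than in most others. In podocyte-like cells replicate 1 was the lowest of the 4 libraries for 10 of the 10 chaperone genes and replicate 4 the highest for 9 of 10, Dnajb4 being highest in replicate 2. Over the 9 of them with at least 100 CPM, 5 differed 2-fold or more between the highest and the lowest library, with a median ratio of 2.42. Of all 1873 genes of that level, 2.03% did so, with a median ratio of 1.23, and 32.7% were lowest in replicate 1. Hspa1b (3.19-fold), Hsph1 (3.14-fold), Hspa1a (2.85-fold), Dnajb1 (2.70-fold) and Hspb1 (2.42-fold) were the 5, while Hspa8, Hsp90ab1, Hsp90aa1 and Dnajb4 stayed between 1.47-fold and 1.62-fold. The constitutive forms Hspa8 and Hsp90ab1 were thus among those with the narrow spread, and so was the stress-inducible Hsp90aa1.

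The same order of libraries was not kept in every type. In endothelial-like cells 5 of the 9 reached 2-fold against 7.85% of 1898 genes, and replicate 1 was lowest for 9 of 10. In tubular-like cells 4 of the 9 reached it against 5.32% of 1560 genes, with Hspb1 at 3.64-fold, and replicate 1 was lowest for 7 of 10. In mural-like cells (3 of 9 against 48.6%) and parietal epithelial-like cells (4 of 9 against 36.4%), with 39 to 112 cells per library, the members' shares were near or below the background. The summed chaperone share in podocyte-like cells was 0.679%, 1.01%, 1.02% and 1.25% in replicates 1 to 4, 1.84-fold from lowest to highest, and that of 29 immediate-early genes, which are also known to be raised by dissociation, was 4.46%, 5.08%, 4.99% and 5.12%, or 1.15-fold. Replicate 1 also had the lowest median depth, at 816 UMIs per cell against 1156, 907 and 1003.5 in replicates 2 to 4. The deepest library was replicate 2 and not replicate 4, and the part of depth was not tested. Median mitochondrial shares were 4.53% to 4.94%. Neither handling time nor any other difference between the libraries is in the labels, and their part was not tested.

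**Figure D3:**
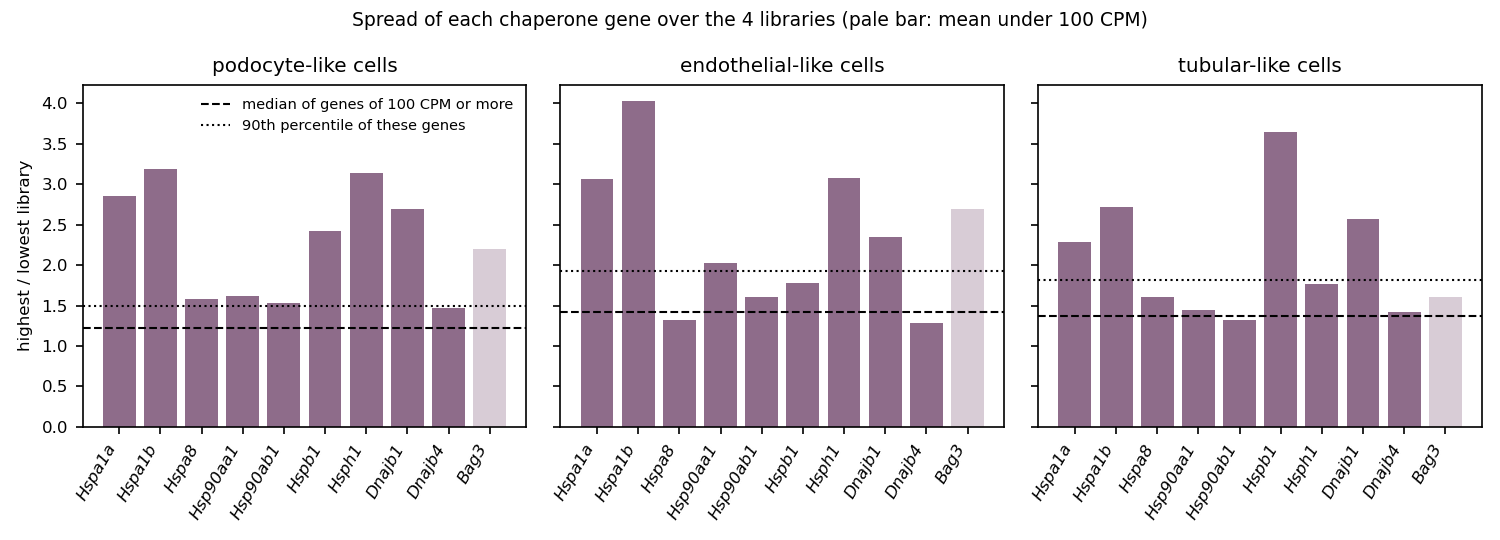
Ratio of the highest to the lowest of the 4 libraries for each chaperone gene (y axis, linear from 0) in podocyte-, endothelial- and tubular-like cells; the dashed line is the median and the dotted line the 90th percentile of all genes of at least 100 CPM, and pale bars are under that level. In podocyte-like cells the bars of Hspa1a, Hspa1b, Hspb1, Hsph1 and Dnajb1 stand at 2.42 or more, against a median of 1.23.

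Pearson's r of log2 values over the 20 sums of a library and a type describes sums that share libraries and depth. Among the 8 chaperone genes other than Dnajb4 and Bag3, r ran from 0.48 (Hspb1 and Hsp90aa1) to 0.95 (Hspa1a and Hspa1b). The next highest values were 0.87 between Hsp90aa1 and Hsp90ab1, 0.86 between Dnajb1 and Hsp90ab1, 0.85 between Hsph1 and Hsp90ab1 and 0.84 between Hspa8 and Hsp90ab1. No r of ordinary gene pairs stands beside these values. Dnajb4 and Bag3 had mostly lower values: r of Dnajb4 ran from -0.52 (to Bag3) to 0.53 (to Hsp90aa1), and that of Bag3 to the other 8 from 0.10 (Hsp90aa1) to 0.56 (Hspa1a). Among 3544 other genes of at least 50 CPM, the most alike were pseudogene copies for 3 members: Hsp25-ps1 for Hspb1 (r = 0.96), Gm12346 for Hsp90aa1 (0.86) and Gm6368 for Hsp90ab1 (0.81). Next to Hspb1 came Arf2 (0.92) and Pitpnc1 (0.90). Dnajb4 was most like Nck2 (0.92), Myh9 (0.91) and Fat1 (0.91). For the rest the highest values were 0.75 for Hspa1a (Mxd4), 0.70 for Hspa1b (Tmem33), 0.77 for Hspa8 (Asap2), 0.75 for Hsph1 (Ube2d3) and 0.77 for Dnajb1 (Prrc2c).

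Within the podocyte-like cells, 8 clusters were compared with each other in a fit of 5710 genes. Cluster 9, 544 cells with a median of 763.5 UMIs and 6.19% mitochondrial UMIs, was lower in 8 of the 10 chaperone genes, against 4.68% of all genes, and higher in 0, against 4.27%, also at an unadjusted p under 0.05 in edgeR and by DESeq2. Hsp90aa1 stood there at 1157, 1141, 969 and 1593 CPM in replicates 1 to 4, against 1411, 2274, 1941 and 2436 in cluster 3. Its log2 fold in cluster 9 was -0.65 ± 0.08 (edgeR adjusted p = 8.83e-13), lower in 4 of 4 libraries. Hsph1 (-0.87 ± 0.17, edgeR adjusted p = 1.57e-05), Dnajb1 (-0.65 ± 0.17, edgeR adjusted p = 0.00352), Dnajb4 (-0.56 ± 0.13, edgeR adjusted p = 0.000837), Hspb1 (-0.55 ± 0.09, edgeR adjusted p = 2.30e-07) and Hspa8 (-0.53 ± 0.08, edgeR adjusted p = 1.59e-08) were lower too. So were Hsp90ab1 (-0.33 ± 0.06, edgeR adjusted p = 4.30e-06) and Hspa1a (-0.25 ± 0.09, edgeR adjusted p = 0.0435), the latter in 2 of 4 libraries only. The Hspa1a call was lost with DESeq2 (-0.21) and without replicate 1 (-0.22) or 2 (-0.068), and without replicate 3 the value was -0.40. Without replicate 2, Dnajb1 (-0.58) and Dnajb4 (-0.39) were not called either, nor was Dnajb1 without replicate 4 (-0.45). Dnajb1 in this cluster was flat over the libraries, at 188, 172, 178 and 151, so that in replicate 1 it was above clusters 3 and 5, at 131 and 159.7.

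Other genes moved with cluster 9. Of 24 immediate-early genes tested there, 19 were lower and 1 higher, while 5 of 15 chaperones of the endoplasmic reticulum were higher and 0 lower (0 also at an unadjusted p under 0.05 in edgeR and by DESeq2). The cluster led with Gm23935, Lars2, Gm15564 and Neat1, of which Lars2 encodes a mitochondrial tRNA synthetase and Neat1 a nuclear non-coding RNA, and their part in the result was not tested.

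Elsewhere among podocyte-like cells the differences were small. Cluster 3, the largest in UMIs per cell (median 1980), was higher in 4 of 10 (Hspa1a, Hsp90aa1, Hsph1 and Dnajb4), against 6.39% of all genes, with log2 folds of 0.14 to 0.28. The Hspa1a call there was lost with DESeq2 and without replicates 1, 2 or 3 (0.13 to 0.17), and that of Hsph1 without replicate 2 (0.24). Cluster 5 was higher in Hspb1 (0.31 ± 0.05) and Dnajb1 (0.49 ± 0.09), against 4.05%, and cluster 7 in the same 2 genes (0.47 ± 0.07 and 0.40 ± 0.13), against 7.16%. Dnajb1 in cluster 7 was not called with DESeq2 (0.36), with no filter on low counts (0.32), or without replicate 1 (0.38), 2 (0.28) or 4 (0.38). Hspb1 was higher in cluster 10 (0.36 ± 0.07, against 0.193% of all genes), where Hsp25-ps1 is among the leading genes and the call was lost without replicate 2 (0.30), and lower in cluster 1 (-0.44 ± 0.06, against 2.01%). Since its copy Hsp25-ps1 was open to the clustering, the call of Hspb1 in cluster 10 may not be independent of how that cluster was formed. This was not tested. In clusters 2 and 12, 0 of the 10 passed edgeR's test, where 0.193% of all genes were higher and 0.683% lower in cluster 2 and 1.65% higher and 0.893% lower in cluster 12. At an unadjusted p under 0.05, 2 were higher and 1 lower in cluster 2 and 0 higher and 1 lower in cluster 12, and DESeq2 called 1 higher in cluster 2 and 0 in cluster 12. These calls rest on comparing clusters within a library: without the library as a block, 2 of the 18 remained, both in cluster 9. Without replicate 2, 5 were lower in cluster 9 and 2 higher in cluster 3.

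**Figure D4:**
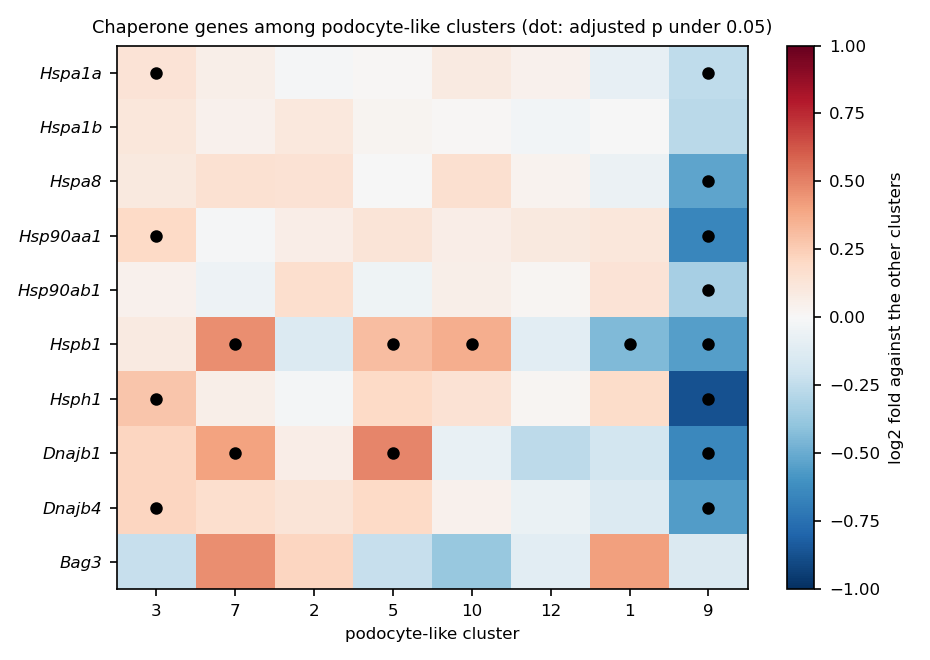
Log2 fold of each chaperone gene (rows) in each podocyte-like cluster (columns) against the mean of the other 7, from blue (-1) to red (1), with a dot where the adjusted p was under 0.05. Cluster 9 holds 8 dots, all on blue, and Hspb1 has dots in 5 clusters.

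The partners and other stress lists did not share one pattern over the types. Their counts stand beside the shares of all genes given above: 27.5% higher and 21.5% lower in endothelial-like, 25.4% and 20.4% in podocyte-like and 27.1% and 26.5% in tubular-like cells. Of the heat-shock transcription factors and regulators, 3 of 6 were counted deeply enough to test, and Hsf1 was lower in tubular-like cells (-0.96 ± 0.35, edgeR adjusted p = 0.0143), where Hsbp1, which binds heat shock factor 1, was higher (0.60 ± 0.11, edgeR adjusted p = 1.97e-06). Among other cytosolic HSP70, HSP110 and HSP40 genes, 3 of 9 tested were higher in endothelial-like cells, namely Hspa2 (2.30 ± 0.30), Dnaja1 (1.30 ± 0.09) and Dnajb6 (0.57 ± 0.16), and 0 were lower (0 also at an unadjusted p under 0.05 in edgeR and by DESeq2), a share of higher genes near that of all genes. Dnaja1, a J-domain protein of cytosolic HSP70, was also lower in tubular-like cells (-1.18 ± 0.10, edgeR adjusted p = 3.18e-17), as were 6 of the 10 members. All 3 remaining small heat-shock proteins tested were lower in endothelial-like cells, where Hspb1 was highest, with log2 folds of -3.10 for Hspb2, -1.58 for Cryab and -1.27 for Hspb8. All 3 were also higher in parietal epithelial-like and lower in tubular-like cells, the latter like Hspb1. Hspb8, the partner of Bag3, was higher in podocyte-like cells (2.08 ± 0.13, edgeR adjusted p = 9.98e-26), where Bag3 was lower.

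Compartments differed. All 8 mitochondrial chaperone genes were higher in tubular-like cells, with Trap1 at 1.77 ± 0.20 and Hspa9 at 1.22 ± 0.12, and 7 of 8 were lower in endothelial-like cells. Tubular-like cells had a median of 14.4% mitochondrial UMIs, against 4.26% in podocyte-like cells, and the part of that in the result was not tested. Of 15 endoplasmic reticulum chaperone genes, 13 were higher in podocyte-like cells (Pdia4 1.37 ± 0.12, Sdf2l1 1.26 ± 0.18, Hyou1 1.08 ± 0.20) and 1, the collagen chaperone gene Serpinh1, lower (-1.41 ± 0.15). Of 17 cytosolic co-chaperone genes, 7 were higher and 2 lower in podocyte-like cells, with Bag5 at 1.03 ± 0.16 and Bag2 at -4.34 ± 1.03. Of the 8 chaperonin subunit genes, 2 were higher in podocyte-like cells (Cct5 and Cct2), 1 in tubular-like cells (Tcp1), shares at or below those of all genes, and 0 in the other types by edgeR or DESeq2, where 2 were lower in mural-like cells at an unadjusted p under 0.05. Of 27 immediate-early genes tested, 24 were lower in tubular-like and 18 higher in podocyte-like cells.

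In bulk, all 10 chaperone genes had higher values in the dissociated library than in whole glomeruli, with 28407317 gene counts in the whole and 24555632 in the dissociated library. Counts were scaled with edgeR's TMM factors, and each group is 1 library, so there is no replicate check and no test. Of the 10, 8 were at least 2-fold higher and 0 at least 2-fold lower, against 10.6% and 19.1% of 12692 genes. Their median log2 ratio was 1.39, and that of all genes was -0.02. Without the TMM factor the median of all genes moved to -0.32, and 5 of the 10 were at least 2-fold higher, against 5.98% of all genes. Intervals below are exact and cover counting error only.

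Dnajb4 had the largest ratio and went from 1657 reads (52.5 CPM) in whole glomeruli to 12984 reads (587 CPM) in dissociated cells, 11.2-fold (95% interval 10.6 to 11.8). Hsp90aa1 went from 6642 to 19523 reads, 4.20-fold (4.08 to 4.32), and Hspa1b from 3402 to 8640, 3.62-fold (3.48 to 3.77). Dnajb1 went from 1564 to 3630 reads, 3.31-fold (3.12 to 3.52). These 4 and Hspa1a (1624 to 3506 reads, 3.08-fold) were the 5 that stayed at least 2-fold higher without the TMM factor. Hspa8 (2.22-fold), Hsph1 (2.09-fold) and Hspb1 (2.05-fold) were nearer to the limit, and the intervals of Hsph1 and Hspb1 reach down to 1.98. Bag3 (868 to 1138 reads, 1.87-fold) and Hsp90ab1 (50864 to 61371 reads, 1.72-fold) were under it. Per length of transcript, Hsp90ab1 was nonetheless the most abundant in both libraries, at 2515 and 3010.1 TPM (counts divided by the joint length of all annotated exons of the gene and scaled to the same total of 1000000), and Hspa8 the next, at 768 and 1186. The place of Dnajb4 in this order rests on the length used, since its annotated exons together span 8765 bases and the transcript checked for shared fragments 2464.

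**Figure D5:**
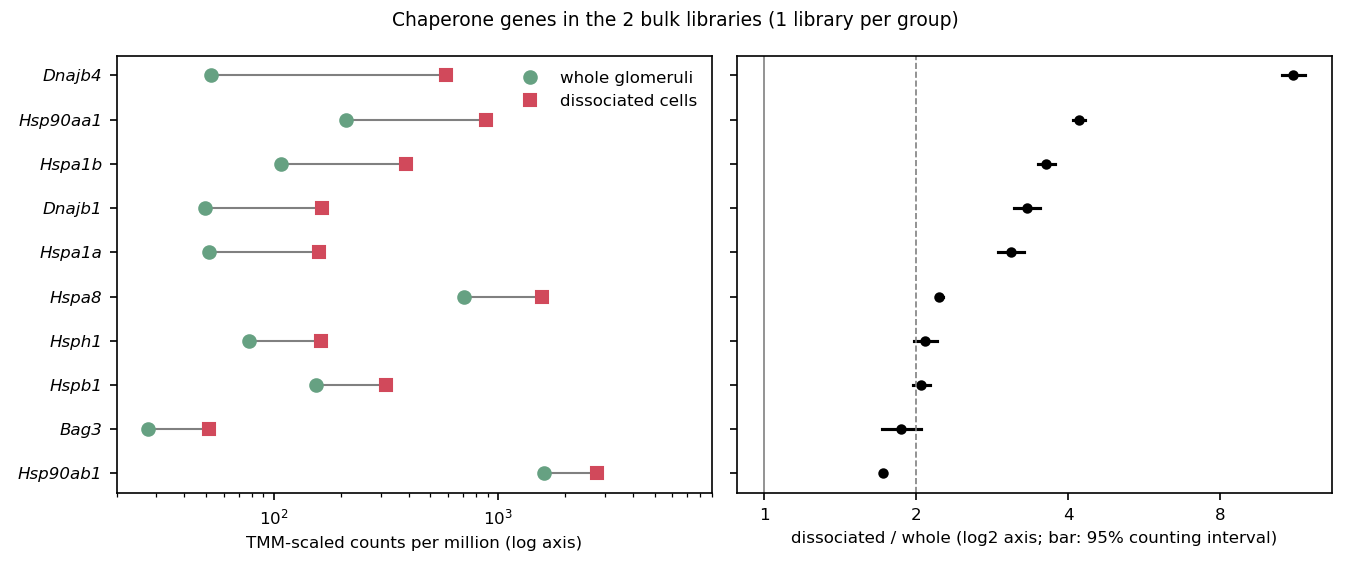
Left, TMM-scaled CPM of each chaperone gene in the 2 bulk libraries (log axis), whole glomeruli as circles and dissociated cells as squares; right, the dissociated-to-whole ratio (log2 axis) with its 95% counting interval and a dashed line at 2-fold. Every square lies to the right of its circle, and Dnajb4 lies farthest, at 11.2-fold.

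The cell make-up of the bulk libraries differed as well, and in bulk fewer cells of a type and less RNA per cell cannot be told apart. The 8 podocyte markers summed to 24567 CPM in whole glomeruli and 46138 in dissociated cells, with 5 of 8 at least 2-fold higher. The 8 endothelial markers summed to 5258 and 1736, with 6 of 8 at least 2-fold lower, and the 8 mesangial markers to 4426 and 219.6, with 8 of 8 lower and a median log2 ratio of -5.29. Hspa1a, Hspa1b, Hspb1, Hsph1, Dnajb1 and Bag3 had their highest mean CPM in endothelial-like cells in the Drop-seq data. They were 1.87-fold (Bag3) to 3.62-fold (Hspa1b) higher in the library with fewer endothelial counts. Dnajb4, highest in podocyte-like cells, had the largest ratio, above that of every one of the 8 podocyte markers, whose highest log2 ratio was 1.84 against 3.48 for Dnajb4. The part of cell make-up in these ratios was not tested.

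The lists beside the 10 genes differed unequally between the bulk libraries, where 10.6% of all genes were at least 2-fold higher and 19.1% at least 2-fold lower. Of 29 immediate-early genes, 22 were at least 2-fold higher and 0 lower, Egr2 going from 15 to 2661 reads and Atf3 from 1588 to 90426. Of the 11 other cytosolic HSP70, HSP110 and HSP40 genes tested, 3 were higher: Hspa2 at 3.13-fold, Dnaja1 at 2.67-fold and Dnajb6 at 2.05-fold. Of 17 co-chaperone genes 1 reached 2-fold (Bag1, 2.07-fold) and of 8 chaperonin subunit genes 0 did. Hspb8 (3.58-fold) and Cryab (3.004-fold) were higher among the small heat-shock proteins, Hspe1 (2.75-fold) among mitochondrial chaperones, and 4 of 15 endoplasmic reticulum chaperones, among them Hspa5 (2.42-fold). At least 2-fold lower were Serpinh1, 1 of those 15, at a ratio of 0.344, and Hsf4, 1 of 4 heat-shock regulators with enough reads, at 0.221. Hsf1 itself had 1977 and 1347 reads, a ratio of 0.973 (0.907 to 1.04).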

How the data were processed

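Counts per gene were deposited by the authors: UMI counts per barcode for the 4 Drop-seq libraries, and read counts per gene for the 2 bulk libraries, whose kit was stranded per the labels. STAR and HTSeq are named in the submitters' processing notes; the build, annotation, strand setting and versions are not given in the sources used here.

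Barcodes with at least 300 genes and at most 20% mitochondrial UMIs were clustered with scanpy 1.11.5 (2000 variable genes, 30 components, 15 neighbours, resolution 1.0), with the chaperone and stress lists left out, and named from fixed markers. Doublets were not called; cells with markers of 2 types, 2.21% of those kept, were left out in an alternative. UMIs summed per library and type (at least 20 cells in at least 3 libraries) were tested with edgeR 4.0.16 (TMM, filterByExpr, quasi-likelihood, Benjamini-Hochberg, threshold 0.05), with the library as a block, since the types of a library come from the same cell suspension. Over 899 genes the deviations of same-library sums correlated between types at r = 0.15 to 0.57. Tests were checked on simulated counts with the same dispersion for every gene and no library effect. That check does not cover variation shared within a library. DESeq2 1.42.0, other scalings, filters and clusterings, and leaving out each library were alternatives. Bulk counts were scaled by TMM factors from all genes of the bulk tables, and ratios used a prior count of 2. Counts of genes past 2-fold were taken over genes of at least 100 reads in the 2 libraries together. Intervals are exact (Clopper-Pearson, 95%). Percentages of cells with a UMI were computed after thinning to 500 UMIs. In the comparisons all 10 genes are named, and up to 4 past the threshold from each other list. The 10 genes and the lists were chosen with earlier results of these data known. One further stress list is not reported here.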

Additional observations from a re-analysis of the deposited data

Results flagged for a closer look

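Over 130 groups of 4 libraries (each gene in each type and podocyte-like cluster), 8 held 1 library far from the other 3; chance gives about 1 in 20. Replicate 1 was the low one in 6 of the 8. Hspa8 in endothelial-like cells was 893 CPM in replicate 1 and 1146 to 1177 in the others, and Dnajb4 in podocyte-like cells 324 against 454 to 475. In cluster 12 Hsp90ab1 was 2670 CPM against 3410 to 3532. In cluster 2 Hsph1 was 143 against 278 to 299.8 and Dnajb4 339 against 474 to 495. In cluster 10 Dnajb1 was 60.7 CPM against 358 to 389.9, and Bag3 was 55.7 in replicate 3 against 12.1 to 17.9. These 2 rest on few molecules: Bag3 had 1, 1, 2 and 33 UMIs in cluster 10 of replicates 1 to 4, and Dnajb1 5, 20, 14 and 683. Hspa8 in mural-like cells was 1261 in replicate 4 against 841 to 895. The 50 immune-like cells, too few for a comparison, held 153 UMIs of the 10 genes in 44181, a share of 0.346%, with Hsp90ab1 at 63 UMIs and Bag3 at 0.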

How the results depend on the processing

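With CPM without the TMM factor in bulk, 5 genes were at least 2-fold higher instead of 8. Without the replicate block, which compares types within a library, counts over the 10 genes were 0 higher and 1 lower in mural-like cells, 1 lower in parietal epithelial-like cells, and over the podocyte-like clusters 0 higher and 2 lower, with 0 higher in cluster 3 and 2 lower in cluster 9; the other counts stayed within 1.5 times. DESeq2 gave 1 lower in mural-like and 3 higher in podocyte-like cells, and RLE size factors 1 lower in mural-like and 6 lower in parietal epithelial-like cells. With no filter on low counts, 0 were higher and 8 lower in parietal epithelial-like cells, 9 higher in cluster 3 and 14 calls higher over the podocyte-like clusters. A mitochondrial limit of 10% gave 0 higher and 1 lower in mural-like and 8 lower in parietal epithelial-like cells, and left no tubular-like group. At least 500 genes per cell gave 1 lower in mural-like and 5 lower in parietal epithelial-like cells; resolution 0.6, the lists kept in the clustering, and mitochondrial genes left out each gave 7 lower there. Against all other cells summed, 2 were lower in endothelial-like and 2 in podocyte-like cells, 0 higher in mural-like, 0 higher and 8 lower in parietal epithelial-like and 1 higher in tubular-like cells, and Dnajb4 in parietal epithelial-like cells turned to -0.0584. Leaving out 1 replicate at a time gave 1 to 3 lower in mural-like, 0 to 1 higher and 2 to 8 lower in parietal epithelial-like, 3 to 8 lower in tubular-like cells, 5 to 8 lower in cluster 9 and 2 to 4 higher in cluster 3, and Hspa1a in tubular-like cells ran from -0.57 to 0.054, the latter without replicate 2. The cause was not tested in these cases. Bag3 rests on 426 UMIs in all, and the mural- and parietal epithelial-like values on 39 to 112 cells per library.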

Other observations

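The Hspb1 pseudogene Hsp25-ps1 had 161, 173, 192 and 512 CPM in the kept cells of replicates 1 to 4, and Hspb1 itself 712, 851, 1119.6 and 1628. Replicate 4 was the highest for both. The remaining pseudogene that led cluster 10, Hspe1-ps3, had 27.5, 27.8, 27.8 and 54.9.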
